A study of Rattus norvegicus with 6 samples.

Results

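Transcripts of 5 extracellular matrix genes were followed in cultured rat bone marrow stromal cells (BMSCs): the fibrillar collagen genes Col1a1, Col1a2 and Col3a1, the fibronectin gene Fn1, and Lox, which encodes lysyl oxidase. They are 5 of the 32883 gene rows of the count table, and were taken by their rat Ensembl IDs: ENSRNOG00000003897 for Col1a1, ENSRNOG00000011292 for Col1a2, ENSRNOG00000003357 for Col3a1, ENSRNOG00000014288 for Fn1 and ENSRNOG00000014426 for Lox. Each symbol was assigned together with its ID in the choice of these genes. The count table holds no symbols and the RefSeq table used as reference lists 0 of the IDs, so no pair disagreed with a mapping, but none could be checked against one either. All 5 genes passed the filter on low counts.

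Messenger RNA was sequenced from primary BMSCs, plastic-adherent marrow cells with the capacity to form bone, fat and cartilage. Of 6 libraries, 3 came from cells kept for 7 days at 1% O2 (Hypoxia) and 3 from cells in normal culture (Control), for which no oxygen percentage is stated. The medium was alpha-MEM plus 10% FBS in both groups, and neither the rat strain nor the age or number of animals is stated. The extraction protocol in the labels names muscle, the other labels BMSCs. Because marker genes could not be named from their IDs, the cell type was not checked here.

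Fibrillar collagens are made as procollagen, trimmed outside the cell and assembled into the fibrils that give connective tissue and bone matrix their tensile strength. Chains from Col1a1 and Col1a2 together form type I collagen, the main collagen of bone, whereas Col3a1 encodes type III collagen, which is typical of soft and early-forming connective tissue. Fibronectin is a matrix glycoprotein that cells bind through integrins and along which collagen is laid down. Lysyl oxidase is a secreted copper enzyme that oxidises lysines of collagen and elastin so that the fibres become crosslinked, and its gene is a known target of hypoxia-inducible factors.

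The 5 genes did not move together. Fn1 and Lox were higher at 1% O2, Col3a1 and, by a small margin, Col1a1 were lower, and Col1a2 did not pass the test. Of the 5 genes, 4 were past an adjusted p of 0.05 (edgeR quasi-likelihood test, Benjamini-Hochberg over all genes), 2 higher and 2 lower. Among all 12702 tested genes 45.0% were called, 23.1% higher and 21.9% lower. These genes are very abundant, and among the 100 tested genes with the highest average CPM 74.0% were called, 57.0% higher and 17.0% lower. A share of 80% of 5 genes is therefore near that of these 100 abundant genes, among which the 5 are counted. The median log2 fold change was 0.0025 over all tested genes. That of the 5 genes, 0.03, is the value of Col1a2 and does not describe the 4 called genes, which moved in opposite directions. None of the 5 changed 2-fold.

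The libraries held 13273781 to 13361629 reads assigned to genes in controls and 14879124 to 18533675 at 1% O2. The counts of the 5 genes lay between 16875 and 785002 reads per library, and the counting error at the mean count of a group was at most 0.728%. Levels are given as CPM, read counts per unit of library size, scaled with TMM factors. Levels are compared between libraries for the same gene, since transcript lengths were not used here. Sums and ranks of CPM over several genes, where given, count reads and are not comparisons of transcript levels. In such bulk cultures, fewer cells that express a gene and less of its RNA per cell cannot be told apart. Nothing in the labels tells whether replicate libraries are separate animals, cultures or preparations, so the p-values rest on a spread that may be technical. Control replicate 2 stood apart from the other controls over all genes, with a mean chi-square per gene of 6.48 and 6.57 against them, where those differed by 1.51 and sampling noise gives about 1.

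Col1a1 stood at 39898, 39161 and 40444 CPM in Control replicates 1, 2 and 3 and at 36729, 35871 and 36637 CPM in the same-numbered libraries at 1% O2. Every library at 1% O2 lay below every control, and the spread within each group was narrow, with a coefficient of variation of 1.62% and 1.29%. The means were 39834 ± 644 and 36412 ± 471 CPM (SD, n = 3 each). The log2 fold change of Col1a1 was -0.13 ± 0.04 (SE), a fall of 1.09-fold, with a 95% interval of -0.21 to -0.05 and an edgeR adjusted p of 0.0106. Its size depended on scaling, since library totals alone gave -0.22 with an adjusted p of 0.000204 by edgeR. Without Control replicate 3 the change was -0.12 and no longer passed, at an adjusted p of 0.0547 by edgeR.

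Col1a2, the partner chain of type I collagen, gave 1397, 1229 and 1505 CPM in the 3 controls and 1435, 1308 and 1463 CPM at 1% O2. The groups overlapped, and Control replicate 2 was the lowest of all 6 libraries. The means were 1377 ± 139 and 1402 ± 83 CPM (SD, n = 3 each). The log2 fold change of Col1a2 was 0.03 ± 0.06 (SE), at an edgeR adjusted p of 0.766. The 95% interval of -0.11 to 0.16 runs from 0.925 to 1.12 times the control level, and it overlaps that of Col1a1. The sign was not stable either. The estimate was -0.06 with library totals alone, -0.05 without Control replicate 2 and -0.0039 without Hypoxia replicate 3. The coefficient of variation of Col1a2 in controls, 10.1%, was the widest of the 5 genes, against a counting error of 0.728%. Its read number was unusually low beside that of Col1a1 for chains of one collagen, and whether the counts cover the whole Col1a2 transcript was not tested.

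Col3a1 had the clearest fall. Its 3 controls held 7733, 7498 and 7328 CPM, and the libraries at 1% O2 held 5372, 5123 and 5393 CPM. The lowest control lay well above the highest library at 1% O2. The group means were 7519 ± 203 and 5296 ± 150 CPM (SD, n = 3 each). This is a log2 fold change of -0.51 ± 0.04 (SE), a fall of 1.42-fold or 29.6% in the fit, with a 95% interval of -0.59 to -0.42 and an edgeR adjusted p of 2.31e-07. Only 8.38% of all tested genes had a lower log2 fold change than Col3a1.

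Fn1 had 36097, 32067 and 36101 CPM in the 3 controls and 43709, 45653 and 45547 CPM at 1% O2. The groups did not overlap, and the low value of Control replicate 2 widened the control spread to a coefficient of variation of 6.70%. The means were 34755 ± 2328 and 44970 ± 1093 CPM (SD, n = 3 each). The log2 fold change of Fn1 was 0.37 ± 0.05 (SE), a rise of 1.29-fold, with a 95% interval of 0.27 to 0.48 and an edgeR adjusted p of 2.90e-05. Without Control replicate 2 it was 0.32 ± 0.02. With a mean difference of 10214 CPM, Fn1 gained more than any other of the 12702 tested genes, although 15.6% of them had a larger log2 fold change.

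Lox gave 1718, 1621 and 1741 CPM in controls and 2372, 2407 and 2394 CPM at 1% O2. The values at 1% O2 were tightly grouped, with a coefficient of variation of 0.741%, close to the counting error of 0.518%, and all lay above the controls. The means were 1693 ± 64 and 2391 ± 18 CPM (SD, n = 3 each). The log2 fold change of Lox was 0.50 ± 0.04 (SE), a rise of 1.41-fold, with a 95% interval of 0.41 to 0.58 and an edgeR adjusted p of 2.90e-07. It was the largest rise of the 5 genes, and 10.3% of all tested genes had a larger log2 fold change.

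**Figure D1:**
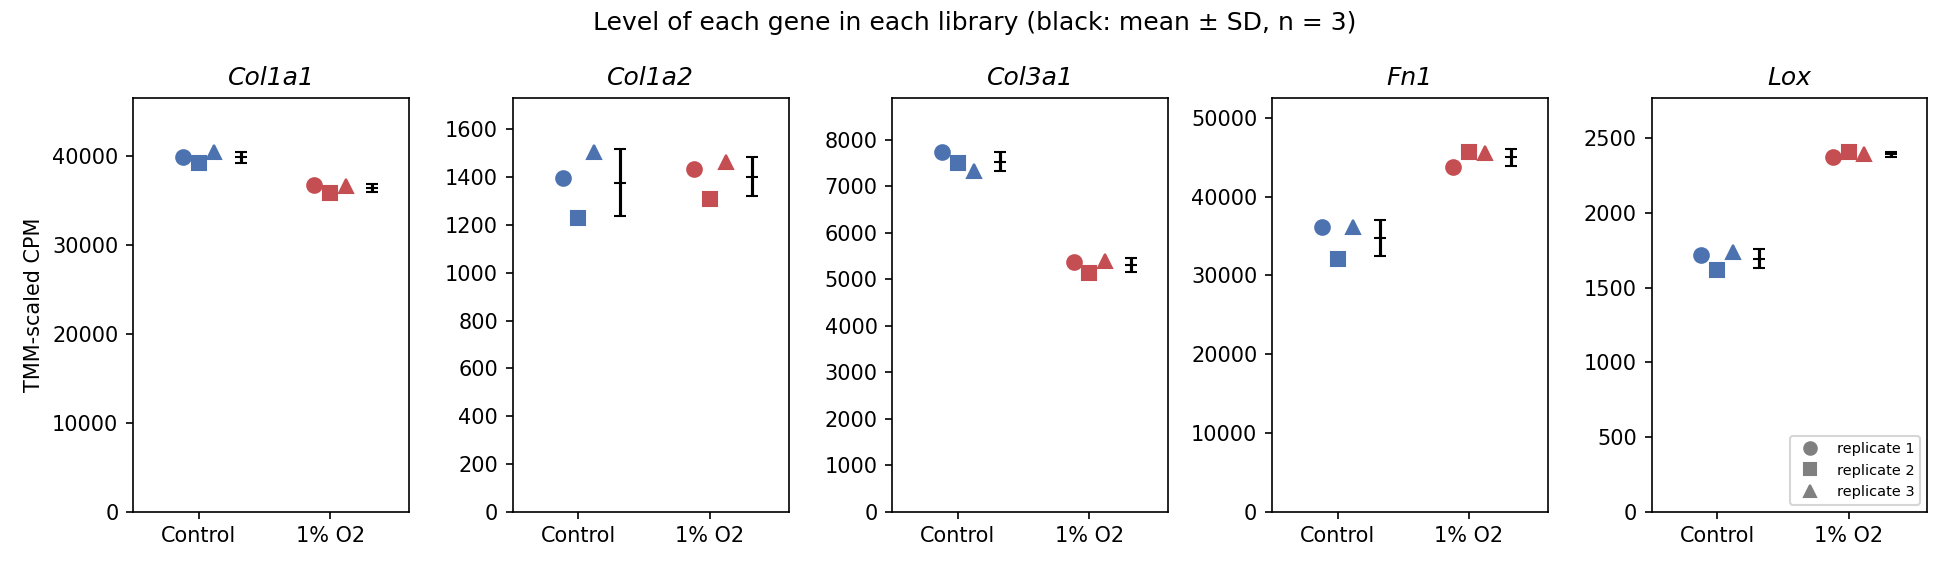
TMM-scaled CPM (vertical axes, each starting at 0) of each gene in the 3 control and the 3 libraries at 1% O2, with the marker shape giving the replicate number and black bars the mean ± SD. The groups are apart for Col1a1, Col3a1, Fn1 and Lox and overlap for Col1a2, whose lowest point is Control replicate 2.

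Of the 5 genes, 4 had CPM ranges that did not overlap between groups, where the share over all tested genes was 55.5%. Control replicate 2 was the lowest control for Col1a1, Col1a2, Fn1 and Lox, but not for Col3a1. On the log2 CPM scale it lay 0.24 below the mean of Control replicates 1 and 3 for Col1a2 and 0.17 below it for Fn1. Of 5043 genes whose average log2 CPM reached 5, 8.73% lay lower than Col1a2 in this comparison and 14.7% lower than Fn1. Without this library the log2 fold changes of Col1a1, Col3a1 and Lox were -0.14, -0.51 and 0.47, and all 4 genes called with it remained past the threshold.

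Whether the 5 genes together differed depended on the scaling and on Control replicate 2. As shares of all assigned reads they held 8.92%, 8.44% and 8.97% of reads in the 3 controls and 8.68%, 8.78% and 8.83% at 1% O2. The groups overlapped, with a difference of means of -0.011 percentage points and an exact two-sided permutation p of 1 over libraries. Without Control replicate 2 the difference was -0.180 points and the groups no longer overlapped, and leaving out 1 library in turn gave -0.180 to 0.087 points. On the TMM scale the sum of the 5 genes was 86842, 81575 and 87119 CPM in controls and 89617, 90362 and 91433 CPM at 1% O2. There every library at 1% O2 lay above every control, by 5292 CPM in the means and by 3490 CPM without Control replicate 2. No direction is therefore given for the total. The makeup differed in the same way on both scales. The 3 collagen genes went from 5.02% ± 0.06 to 4.18% ± 0.06 of reads (SD, n = 3 each), a difference of -0.844 points, with no overlap between groups. On the TMM scale they went from 48731 ± 741 to 43110 ± 700 CPM, also without overlap, which is -0.562 points. Singly, the share differences were -0.576 points for Col1a1, -0.262 for Col3a1 and -0.006 for Col1a2, whose groups overlapped. The lower sum is therefore that of Col1a1 and Col3a1. Fn1 went from 3.58% ± 0.23 to 4.36% ± 0.11, a difference of 0.776 points. The exact two-sided permutation p was 0.1 for the 3 collagens together and for Fn1 on either scale. This is the smallest that 3 libraries against 3 can give.

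Taken singly, Col1a1 held 4.05% to 4.16% of reads in controls and 3.49% to 3.56% at 1% O2. Its difference of -0.576 points was the largest loss of all 32883 rows, and it was -0.342 points on the TMM scale. Col3a1, with 0.754% to 0.794% in controls and 0.498% to 0.521% at 1% O2, ranked 3 among losses. Fn1, with 3.32% to 3.72% and 4.24% to 4.44%, had the largest gain. Lox, with 0.168% to 0.179% in controls and 0.230% to 0.234% at 1% O2, ranked 26 among all gains. Col1a2 overlapped, with 0.127% to 0.155% and 0.127% to 0.141%. These are shares of unscaled reads, in which large genes weigh most and a gain of one gene lowers all others. On the TMM scale the order was nearly the same, with Col1a1 at rank 2 and Col3a1 at rank 3 among losses in CPM.

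**Figure D2:**
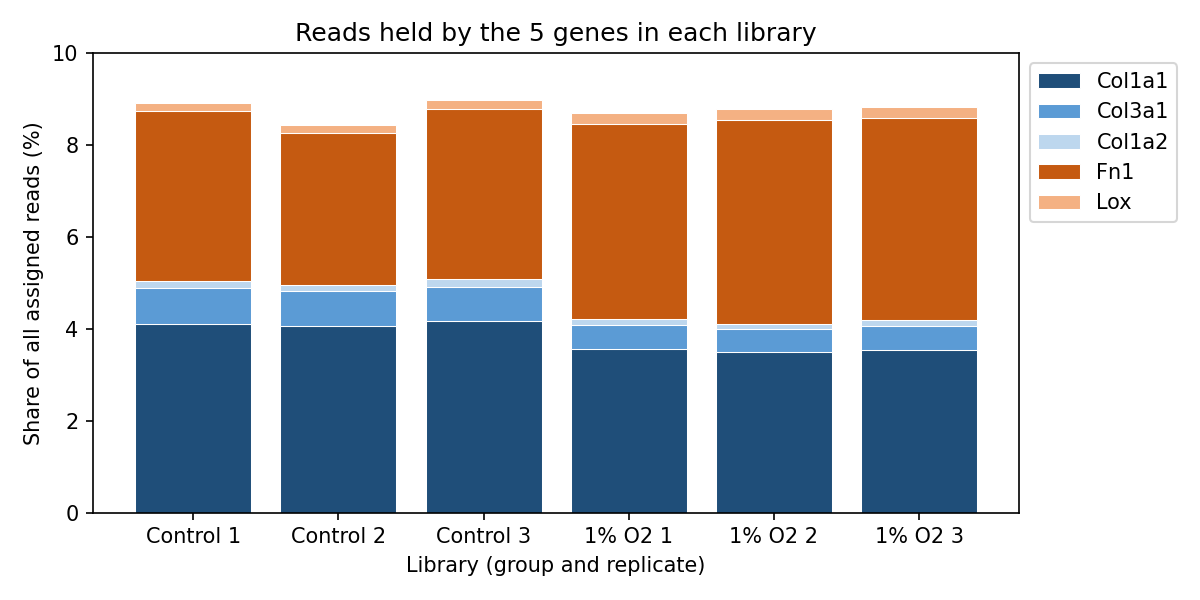
Share of all assigned reads (vertical axis, percent) held by each gene, stacked, in each of the 6 libraries. In these unscaled shares the stacks reach 8.44% to 8.97% in controls and 8.68% to 8.83% at 1% O2. The Col1a1 and Col3a1 parts are smaller and the Fn1 part is larger at 1% O2, and Col1a2 overlaps.

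Ratios between genes within a library need no scaling, so they were compared for all 10 pairs. In controls Col1a1 had more reads than Fn1 in every library, by 1.11-, 1.22- and 1.12-fold, and at 1% O2 it had fewer in every library, with ratios of 0.840, 0.786 and 0.804. Fn1 thus replaced Col1a1 as the row with the most reads of the whole table in each library at 1% O2. Transcript length enters such a ratio of reads, so it is not a ratio of levels, and only its shift between libraries, -0.50 on the log2 scale, was tested. By exact two-sided permutation p was 0.1, the smallest possible here, and 0.111 after Benjamini-Hochberg adjustment over the 10 pairs.

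The 2 fibrillar collagens that fell did so unequally. Reads of Col1a1 were 5.16, 5.22 and 5.52 times those of Col3a1 in controls and 6.84, 7.00 and 6.79 times at 1% O2. The mean log2 ratio went from 2.41 ± 0.05 to 2.78 ± 0.02 (SD, n = 3 each), a 1.30-fold shift. For the 2 chains of type I collagen, the log2 ratio of Col1a1 to Col1a2 was 4.86 ± 0.12 in controls and 4.70 ± 0.07 at 1% O2. These groups overlapped, and the exact two-sided permutation p was 0.2, also after adjustment. A difference in response between Col1a1 and Col1a2 was therefore not resolved. This test could not have settled it at 0.05, since its smallest possible p here is 0.1.

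Lox moved most against Col3a1, from ratios of Col3a1 to Lox of 4.50, 4.63 and 4.21 in controls to 2.27, 2.13 and 2.25 at 1% O2. This 2.01-fold shift was the largest of the 10 pairs, as the pair joins the largest fall and the largest rise of the 5 genes. Against Col1a1, the log2 ratio of Col1a1 to Lox went from 4.56 ± 0.03 to 3.93 ± 0.03 (SD, n = 3 each). Fn1 and Lox rose by more similar amounts, and their log2 ratio went from 4.36 ± 0.05 to 4.23 ± 0.03, a 1.09-fold shift with no overlap between groups. The other 4 pairs shifted by 1.27- to 1.84-fold without overlap. Each of the 9 pairs other than Col1a1 with Col1a2 had an exact permutation p of 0.1, adjusted 0.111. The 10 ratios share 5 genes and are not independent. Each shift is close to the difference between the log2 fold changes of its 2 genes. The ratios thus restate those changes without scaling and are not a further result.

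**Figure D3:**
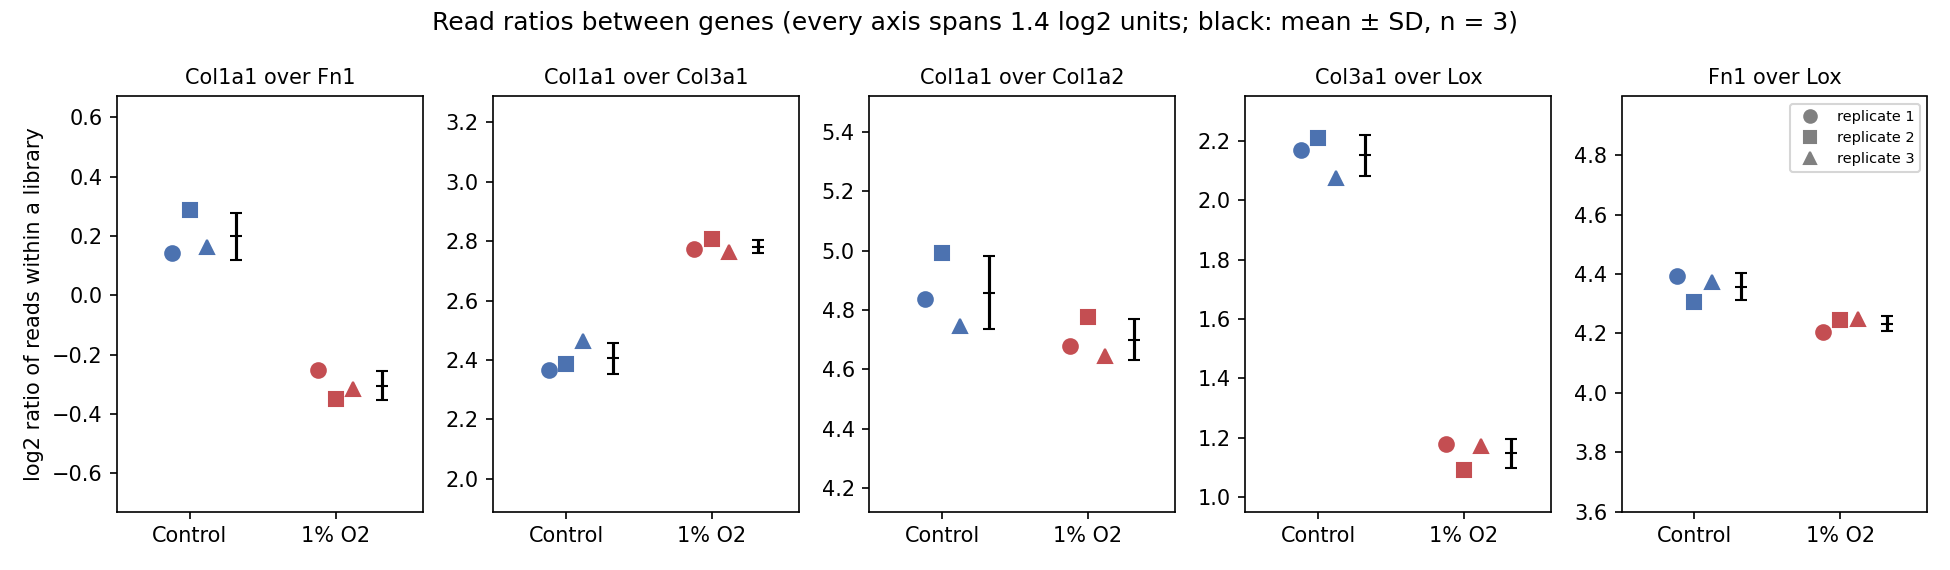
log2 ratio of reads between 2 genes within a library (vertical axes, all of the same span) for 5 of the 10 pairs, with marker shapes for replicate numbers and black bars for the mean ± SD. Col1a1 over Fn1 lies above 0 in the 3 controls and below 0 in the 3 libraries at 1% O2, and Col3a1 over Lox shows the widest shift.

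Against the other genes, the changes were moderate in fold and large in reads. The size of the log2 fold change was 0.51 for Col3a1 and 0.50 for Lox, above that of 81.6% and 81.2% of tested genes. It was 0.37 for Fn1, above that of 71.0%, and 0.13 for Col1a1, above that of 30.9%. The median size was 0.23 over all tested genes and 0.33 over the 100 with the highest average CPM. By CPM, Fn1 and Col1a1 held ranks 1 and 2 of all tested genes over the 6 libraries, Col3a1 rank 12, Lox rank 40 and Col1a2 rank 60. These ranks count reads, to which longer transcripts contribute more. Of all called genes 51.3% were higher with TMM factors but 34.3% with library totals alone, which moved the median log2 fold change by -0.089. The 4 called genes kept their directions under both.

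**Figure D4:**
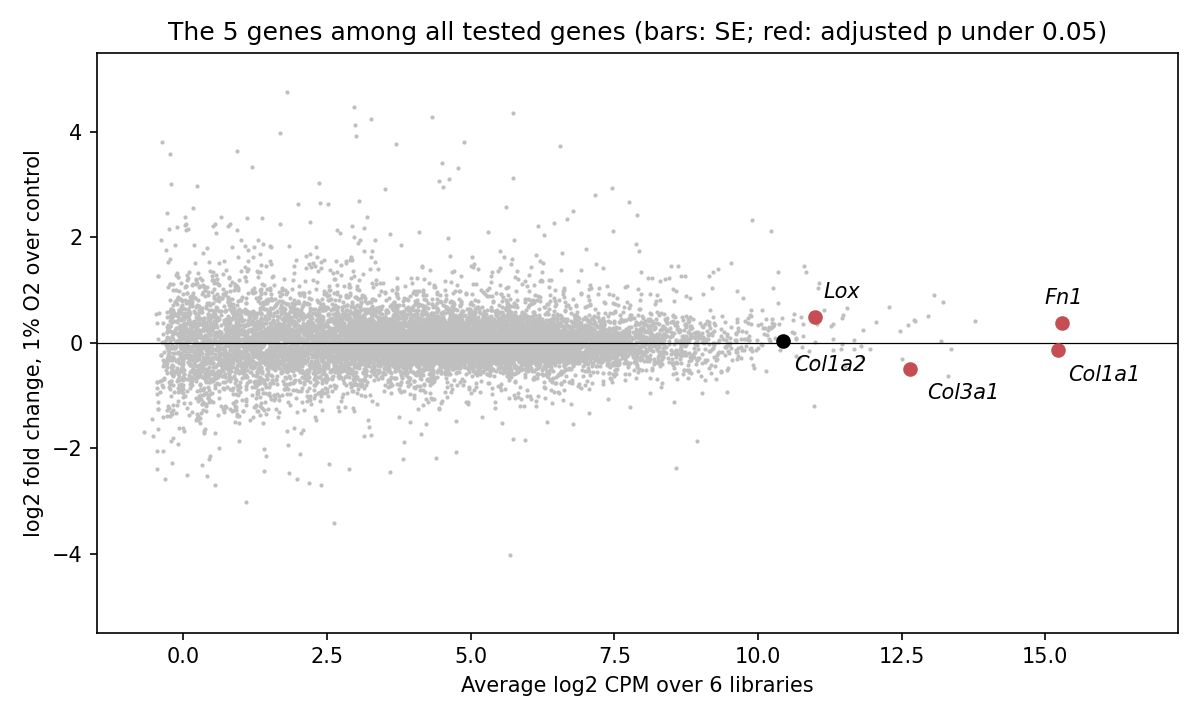
log2 fold change of 1% O2 over control (vertical axis) against average log2 CPM (horizontal axis) for the 12702 tested genes in grey, with the 5 genes marked and their SE, mostly smaller than the marker. Fn1 and Col1a1 lie at the far right, on opposite sides of 0, and Col1a2, in black, did not pass the test.

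Genes whose pattern was most like the summed CPM of the 5 genes were sought among 5038 others whose average log2 CPM reached 5. This sum is mostly Fn1 and Col1a1, which moved in opposite directions. Its group difference depended on scaling, so likeness to it is not likeness to each of the 5 genes. ENSRNOG00000006905 and ENSRNOG00000012733 had the highest Pearson correlations of log2 CPM over the 6 libraries, 0.999 and 0.9987. ENSRNOG00000016161 and ENSRNOG00000003520 had the lowest, -0.9964 and -0.994. Their log2 fold changes were 0.19, 0.19, -0.15 and -0.22. The 6 points share the group contrast and the low value of Control replicate 2, and the extremes of so many genes lie near 1 in size over so few libraries. These are descriptions only, and the files do not name the 4 genes.

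Across 15 other ways to fit the data, Col3a1 ranged from -0.59 to -0.48, Fn1 from 0.28 to 0.40 and Lox from 0.41 to 0.52 in log2 fold change. All 3 stayed past the adjusted threshold under each. Their highest adjusted p-values were 1.22e-05, 0.000666 and 1.71e-05 (edgeR, each without Hypoxia replicate 3).

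**Figure D5:**
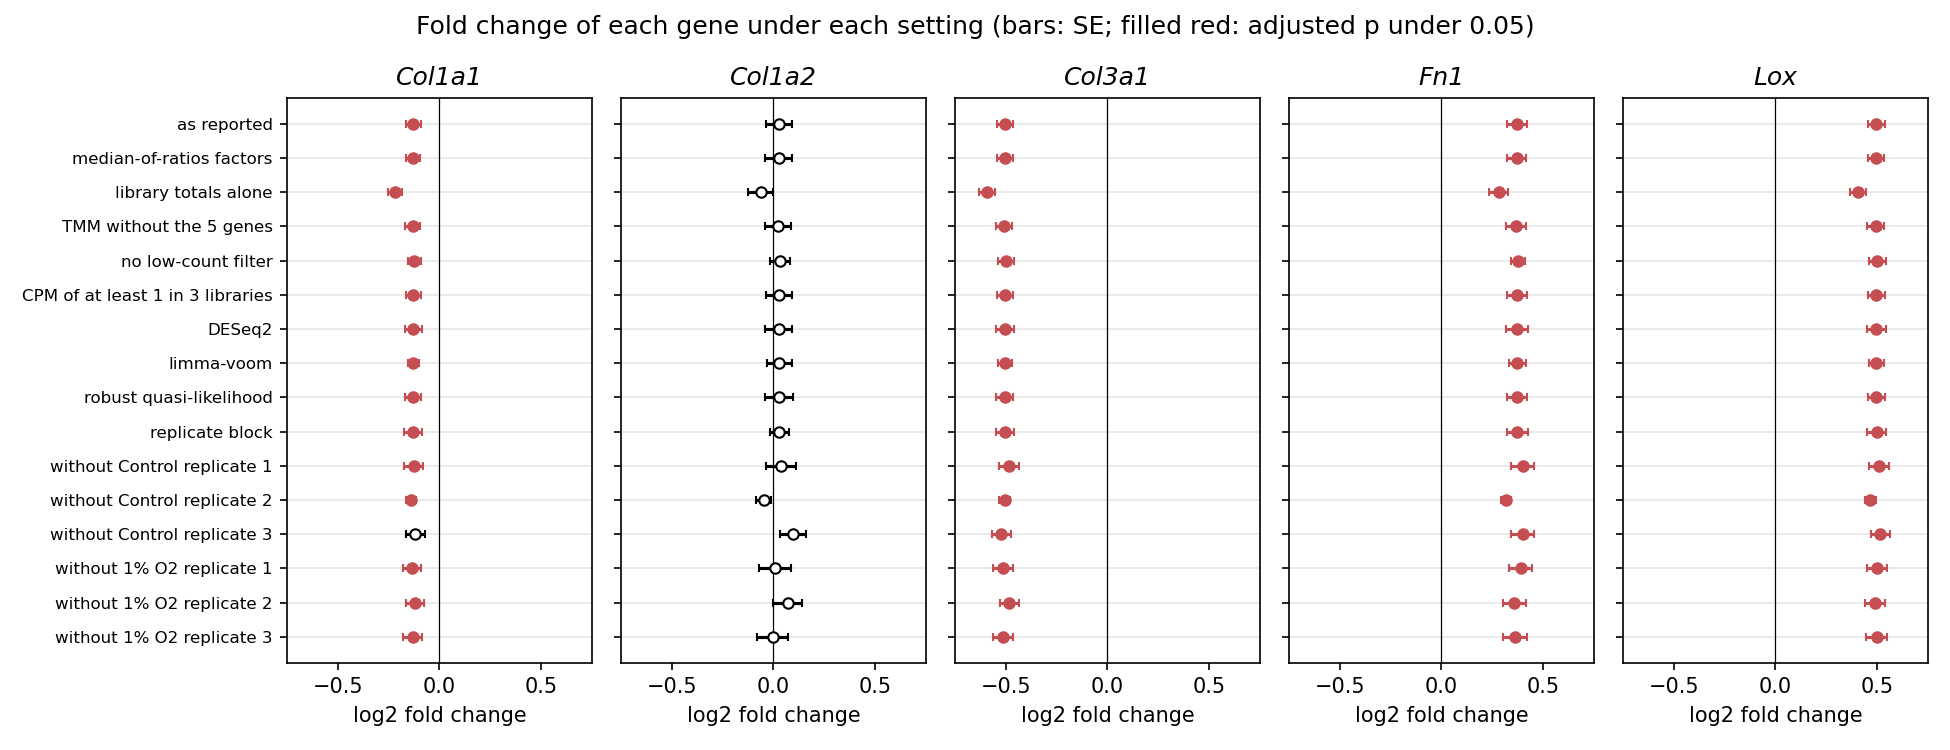
log2 fold change (horizontal axes) of each gene as reported and under 15 other settings (rows), with SE bars and filled red points where the adjusted p was under 0.05. Col3a1, Fn1 and Lox stay on one side of 0 and filled throughout, Col1a1 is open without Control replicate 3, and Col1a2 is open throughout and changes sides of 0.

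The other genes of collagen folding, processing, crosslinking and binding, and markers of stromal, muscle, blood and endothelial cells, were not analysed here, because their IDs could not be named. Which cells of the cultures held the 5 transcripts, and how many cells each library represents, was therefore not tested.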

How the data were processed

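The authors deposited raw read counts per Ensembl gene ID, 1 column per library. Per the submitters' processing notes, HISAT2, featureCounts and DESeq2 were used with the rat build rn6. The sources used here give neither versions nor annotation release nor strand setting, so overlapping or antisense genes may share reads. Per the labels' protocols, the kit was the stranded Illumina TruSeq mRNA kit. Columns were matched to samples by library name, and 0 columns belonged to other samples.

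Counts were analysed here with edgeR 4.0.16 in R 4.3.3: filterByExpr (minimum count 10, minimum total 15), TMM factors and the two-sided quasi-likelihood F-test over all genes, with Benjamini-Hochberg adjustment and a threshold of 0.05. SE is the size of the log2 fold change divided by the square root of F, and intervals use its t distribution with 13.7 degrees of freedom. Log2 CPM had a prior count of 2. Shares use unscaled counts. Alternatives were other scalings, filters and tools (DESeq2 1.42.0, limma 3.58.1), a replicate block and leaving out each library. Genes described were the 5 chosen ones, plus the 2 most and 2 least correlated with their sum. The genes and lists were chosen with earlier results of these data known. The gene lists fixed for pathways and cell types were not run, since 0 IDs could be named.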

Additional observations from a re-analysis of the deposited data

How the results depend on the processing

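The number of genes called over the whole table (5718, with 2932 higher and 2786 lower) stayed within 1.5 times under 15 of 16 alternatives. The exception, by construction, was the 2-fold minimum, with 599, 360 and 239. Col1a1 kept its direction throughout and its call under 14 of 15 settings. Leaving out 1 library gave -0.14 to -0.12 on the log2 scale, and the call was lost without Control replicate 3. Col1a2 passed under no setting, and its sign turned with library totals (-0.063) and when 1 library was left out (-0.048 to 0.095). The cause was not tested. The share of reads of Col1a2 differed by -0.013 to 0.00051 percentage points when 1 library was left out, and that of the 5 genes together by -0.18 to 0.087. Both straddle 0. On the TMM scale, an alternative added after seeing the data, they differed by 0.0025 and 0.529 points. The ratios between genes and the other shares kept their direction under their alternatives, but 3 libraries against 2 cannot give an exact p below 0.2. With the replicate block, 5295 genes were called, and Col1a1, Col1a2, Col3a1, Fn1 and Lox were at -0.13, 0.03, -0.51, 0.37 and 0.50, with no call changed among them. Same-numbered libraries correlated at -0.044, -0.051 and 0.005 in their deviations from the group means, so shared numbers were not taken as pairs. Depth did not limit these abundant genes, whose spread between libraries exceeded counting error in each group.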

Other observations

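Col1a1 and Col1a2 encode chains of the same collagen, yet their read numbers were far apart, which is unusual for marrow stromal cells. Col1a1 had 26.9 to 31.9 times the reads of Col1a2 in controls and 25.0 to 27.4 times at 1% O2. Reads were not divided by transcript length, so these are ratios of reads and not of levels. The counts of Col1a2 were not shown to measure its whole transcript. Neither the pairing of IDs with symbols nor the gene models behind the counts was checked here.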
